A study of Mus musculus with 18 samples.

Results

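The genes described here are 9 members of the Ly6 and Cd59 families and other proteins held at the cell surface by a glycosylphosphatidylinositol (GPI) anchor: Ly6c1, Ly6c2, Ly6a, Ly6e, Ly6k, Cd59a, Cd59b, Gpihbp1 and Alpl. They were chosen by symbol from the 21638 genes of the deposited table, and all 9 were found. The choice was made with results of these data in view, among them the low values of Ly6c1 and Ly6k in the libraries labelled Ezh2 ECKO against MCAO ipsilateral. Values of that contrast, and of any other that uses the Ezh2 ECKO libraries, are therefore a description only.

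A GPI anchor is a glycolipid that is built in the endoplasmic reticulum and joined to the end of a protein, which it then ties to the outer leaflet of the plasma membrane. Ly6 proteins are small, cysteine-rich domains of the uPAR type on such an anchor, and several of them are known to be induced by interferon. Ly6c1 and Ly6a (Sca-1) are widely used markers of brain microvascular endothelium, while Ly6C on monocytes is a standard marker of the inflammatory subset. CD59 belongs to the same fold and blocks the last step of complement attack on the cell's own membrane. GPIHBP1 carries lipoprotein lipase to the lumen of capillaries, and Alpl encodes tissue-nonspecific alkaline phosphatase, a classical histochemical marker of brain capillaries.

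On day 7 cortical endothelium was isolated from mice by a gate that kept CD31-positive cells and left out cells positive for CD41 (a platelet antigen) or CD45 (a leukocyte antigen), and their mRNA was amplified with a SMART-Seq kit. The 6 groups of 3 libraries were wild-type sham ipsilateral, wild-type sham contralateral, wild-type MCAO ipsilateral, and wild-type MCAO contralateral, plus the ipsilateral side of occluded Hdac2 ECKO and of occluded Ezh2 ECKO mice. MCAO is occlusion of the middle cerebral artery, which models ischaemic stroke, with sham surgery as the control. ECKO mice were homozygous for floxed alleles of the named gene and carried CreERT2, a Cre recombinase switched on by tamoxifen, driven by the endothelial Cdh5 promoter. Every group is labelled as given tamoxifen at 75 mg per kg. The labels do not say whether the wild-type mice carried Cre or floxed alleles, whether same-numbered ipsilateral and contralateral libraries came from 1 mouse, or whether the libraries of a group came from separate mice, so p-values measure only the spread between these libraries.

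Total counts ran from 25791401 to 57576255 per library. The transcripts of the targeted genes were not lower beyond their spread in the libraries labelled as deleted. Hdac2 was at 76.8 ± 16.7 CPM (counts scaled to a library total of 1000000; SD, n = 3) in Hdac2 ECKO against 82.9 ± 14.0 in MCAO ipsilateral (log2 fold change −0.11 ± 0.32, SE), and Ezh2 was at 13.4 ± 5.75 CPM in Ezh2 ECKO against 6.44 ± 1.77 (1.05 ± 0.86), with no overlap. The table holds 1 value per gene, so it cannot show the loss of single exons, and these groups are called by their labels. All 17 endothelial markers were detected, with a sum between 22264 and 61044 CPM per library. Reads assigned to 1466 olfactory and vomeronasal receptor genes, taken as a gauge of background, ran from 152 to 2083 CPM, with the highest values in Ezh2 ECKO replicate 2 and MCAO contralateral replicate 1 (1889 CPM).

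Ly6c1, Ly6c2, Ly6a, Ly6e, Ly6k and Gpihbp1 lie on mouse chromosome 15 (build GRCm38), Ly6k at chr15:74796874-74799986, Ly6e at chr15:74955051-74959905, Ly6a at chr15:74994877-74998031, Ly6c1 at chr15:75044018-75048830, Ly6c2 at chr15:75108158-75111970 and Gpihbp1 at chr15:75596628-75599481. Ly6e and Gpihbp1 are on the plus strand and the other 4 on the minus strand. Cd59b (chr2:104069849-104091187) and Cd59a (chr2:104095801-104115354) are neighbours on the plus strand of chromosome 2. Alpl is at chr4:137741733-137796384 on the minus strand.

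Ly6c1 and Ly6c2 are near-identical, which bears on how reads could be assigned to either. Over the coding parts of their first-listed transcripts (GENCODE M21, 396 bases each) 387 bases matched, an identity of 97.7%. Bases 1 to 300 of each coding sequence are shown 5′ to 3′, with the bases that differ, 7 of the 9, in capitals.
Ly6c1: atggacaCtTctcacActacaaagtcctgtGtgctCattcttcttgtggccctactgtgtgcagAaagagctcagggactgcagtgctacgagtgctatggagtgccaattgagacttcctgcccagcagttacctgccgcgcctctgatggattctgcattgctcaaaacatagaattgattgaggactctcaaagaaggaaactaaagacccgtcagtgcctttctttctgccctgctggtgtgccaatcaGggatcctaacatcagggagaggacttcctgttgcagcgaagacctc
Ly6c2: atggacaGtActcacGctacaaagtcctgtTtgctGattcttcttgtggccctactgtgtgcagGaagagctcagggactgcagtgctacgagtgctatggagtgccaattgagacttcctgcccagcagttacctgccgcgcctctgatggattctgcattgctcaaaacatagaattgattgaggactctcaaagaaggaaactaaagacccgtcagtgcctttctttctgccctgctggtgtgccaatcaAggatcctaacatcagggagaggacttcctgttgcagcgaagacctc
The differences in this stretch crowd near its start, and a long identical run follows. Of the 770 windows of 75 bases in the whole Ly6c1 transcript, 164 (21.3%) also occurred unchanged in a Ly6c2 transcript, and 39 of 695 windows of 150 bases (5.61%) did. Ly6a shared 15 windows of 75 bases with Ly6c1 and none of 150 (0 of 695), at a coding identity of 82.0%. Cd59a and Cd59b were 75.1% identical and shared 30 of 1617 windows of 75 bases. How reads that match 2 genes were treated is not given in the sources used here, so the split between Ly6c1 and Ly6c2 is uncertain. The coding identity of Ly6c1 to Ly6e was 50% and to Ly6k 46.5%, and neither shared a window of 75 bases with it (0 of 770).

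The 250 bases before the start site are shown for the most alike pairs, because the Ly6 genes varied together across libraries and the Cd59 pair did so less closely. They come from the RefSeq promoter table (GRCm38.p6), which held windows for 5 of the 9 genes (Ly6c1, Ly6c2, Cd59a, Cd59b and Alpl). Capitals mark matches on either strand to 5 motifs, which may overlap where their letters allow. They were an interferon-response-like motif (a pair of GAAA runs with any 2 bases between them), a STAT-type motif (TTC and GAA with any 3 bases between them), the ETS core AGGAAG, the CCAAT box and the TATAAA box.
Ly6c1, minus strand, chr15:75048838-75049087: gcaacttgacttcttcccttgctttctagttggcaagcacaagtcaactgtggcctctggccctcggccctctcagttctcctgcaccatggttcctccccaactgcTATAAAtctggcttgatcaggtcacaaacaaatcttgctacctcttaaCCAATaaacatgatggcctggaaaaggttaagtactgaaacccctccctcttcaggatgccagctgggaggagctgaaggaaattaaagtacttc
Ly6c2, minus strand, chr15:75111972-75112221: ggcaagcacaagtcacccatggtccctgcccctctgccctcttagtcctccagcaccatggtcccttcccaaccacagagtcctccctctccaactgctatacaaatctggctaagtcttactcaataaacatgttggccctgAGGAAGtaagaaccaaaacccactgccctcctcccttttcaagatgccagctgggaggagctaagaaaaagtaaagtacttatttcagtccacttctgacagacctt
Cd59a, plus strand, chr2:104095551-104095800: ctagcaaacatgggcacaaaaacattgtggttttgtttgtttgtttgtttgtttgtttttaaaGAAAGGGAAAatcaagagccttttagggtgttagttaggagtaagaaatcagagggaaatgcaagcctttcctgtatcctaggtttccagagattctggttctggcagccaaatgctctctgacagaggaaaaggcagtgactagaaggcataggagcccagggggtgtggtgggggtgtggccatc
Cd59b, plus strand, chr2:104070816-104071065: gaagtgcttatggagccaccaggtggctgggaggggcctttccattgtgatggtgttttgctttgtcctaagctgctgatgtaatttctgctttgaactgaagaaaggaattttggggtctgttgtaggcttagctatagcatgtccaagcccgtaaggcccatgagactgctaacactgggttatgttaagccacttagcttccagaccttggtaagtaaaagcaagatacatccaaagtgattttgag
The Ly6c1 window held a TATAAA match at position 108 and a CCAAT match at position 156, counted from its first base. The match before the start site in the Ly6c2 window was AGGAAG at position 144. Ly6c1 and Ly6c2 each have a second start site in the table, whose windows also held AGGAAG. The whole windows of 300 bases were 62.3% identical between Ly6c1 and Ly6c2 and 45.6% between Cd59a and Cd59b. Cd59a had the interferon-response-like motif at position 64, which 3.44% of the 32851 promoter windows in the table held, and no match was found upstream of Cd59b. The other motifs were commoner: 8.30% of windows held the STAT-type motif, 35.4% the ETS core, 37.4% the CCAAT box and 13.6% the TATAAA box. A match is a run of letters and not a shown binding site.

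Levels between genes are compared as CPM per kilobase of the deposited feature length. Ly6c1 and Ly6a were among the most abundant mRNAs of these cells, with a median over 18 libraries of 4420 CPM per kb (range 1557 to 10567) and 4331 (1735 to 10888), and median ranks of 11 and 10 among all genes. Their order was not fixed, since Ly6c1 was above Ly6a in 5 of 18 libraries. Ly6e followed at 723 CPM per kb, then Cd59a at 377 and Ly6c2 at 316, and Cd59a was above Ly6c2 in 12 of 18. Cd59b (24.6) and Alpl (16.7) were far lower, with Cd59b above Alpl in 15 of 18 libraries. Gpihbp1 (1.96) and Ly6k (1.76) were close to the limit of detection: Gpihbp1 had 0 counts in 2 libraries and Ly6k in 3. All 9 passed the filter for testing (10 or more counts in 3 or more libraries), Ly6k with 12 libraries and Gpihbp1 with 13 at that count, the others with 18.

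**Figure D1:**
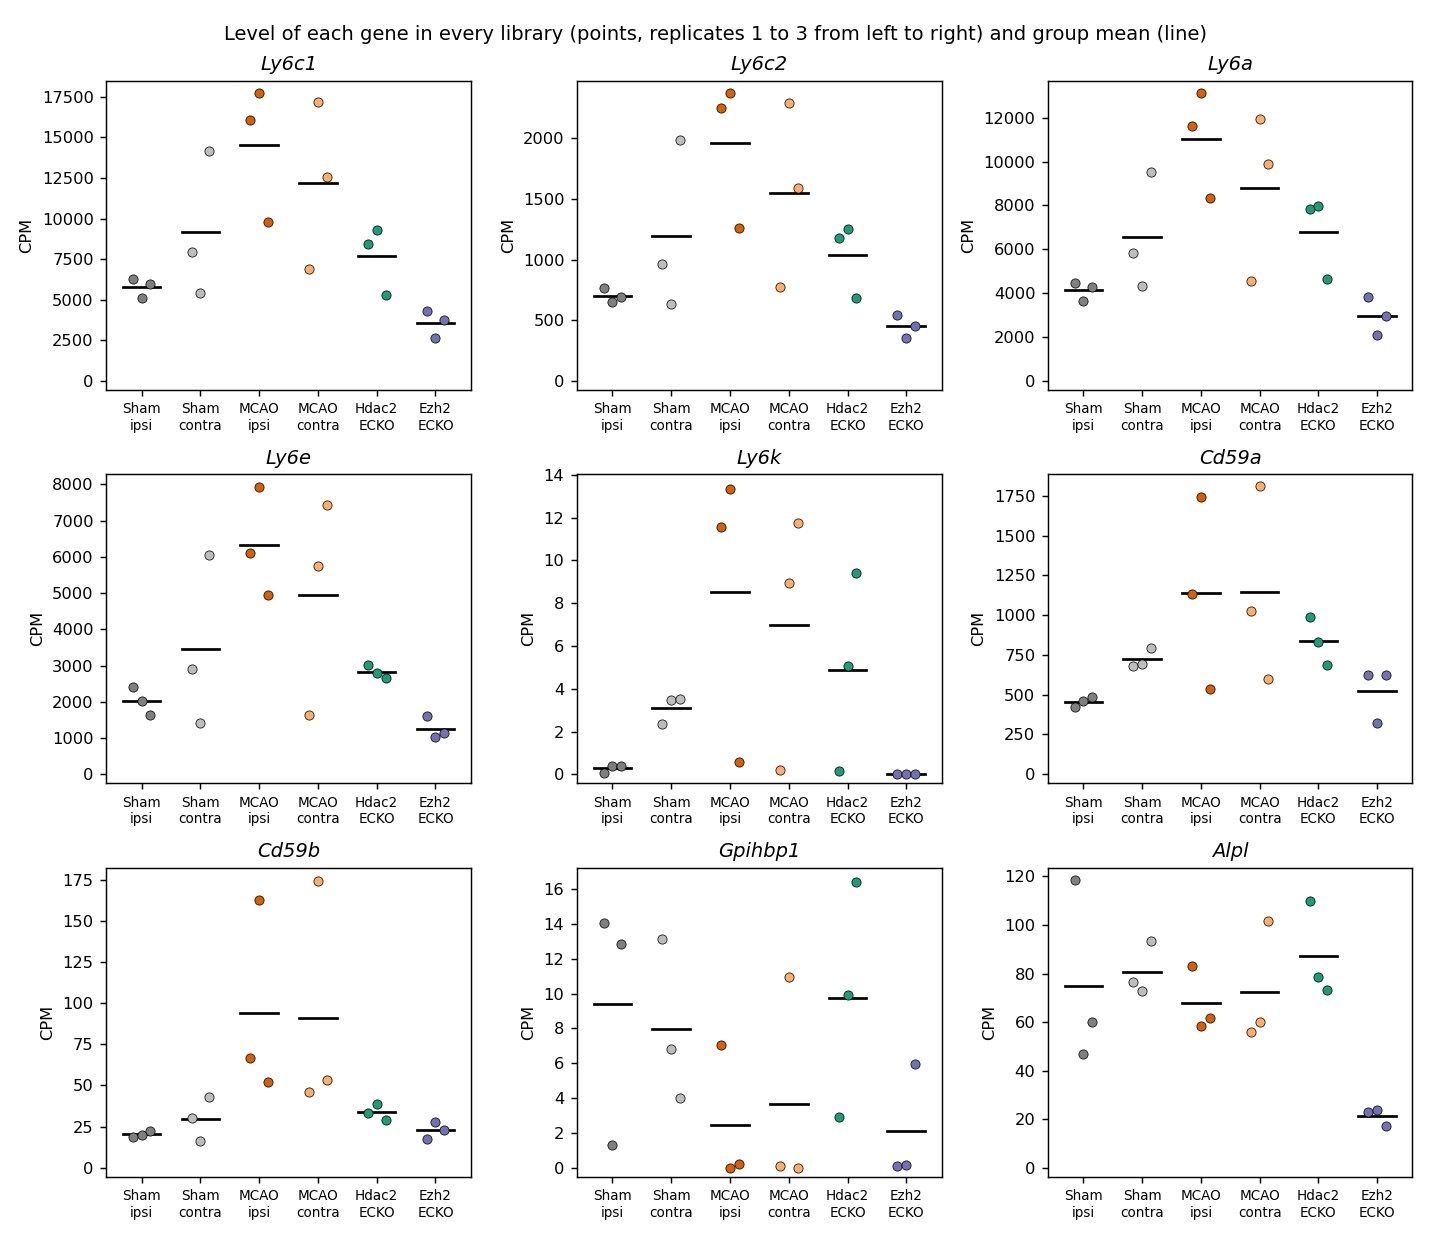
Level of each of the 9 genes in CPM (vertical axes, which include 0) in the 6 groups (horizontal axis); points are libraries, replicates 1 to 3 from left to right, and lines are group means. Ly6c1, Ly6c2, Ly6a and Ly6e have their highest mean in MCAO ipsilateral and their lowest in Ezh2 ECKO, and Ly6k is at 0 in all 3 Ezh2 ECKO libraries.

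Ly6c1, the endothelial Ly6C gene, was at 6244, 5080 and 5972 CPM in sham ipsilateral (replicates 1 to 3 here and below), at 16048, 17721 and 9768 in MCAO ipsilateral, with 8426, 9319 and 5309 for Hdac2 ECKO and 4312, 2610 and 3723 for Ezh2 ECKO. The lowest MCAO ipsilateral library was above every sham ipsilateral and every Hdac2 ECKO library, and all Ezh2 ECKO libraries lay below all others of these groups. On the contralateral side it was at 7935, 5408 and 14187 CPM in sham and at 6889, 17165 and 12542 in MCAO, so the groups overlapped there. In a mixture of RNA from many cells, fewer cells of a type and less RNA per cell cannot be told apart.

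Ly6c2, its near copy, was at 767, 648 and 688 CPM in sham ipsilateral, 2254, 2372 and 1261 in MCAO ipsilateral, with 1182, 1256 and 679 for Hdac2 ECKO and 546, 350 and 455 for Ezh2 ECKO. Within each group the libraries ranked as for Ly6c1. Contralateral values were 963, 635 and 1984 CPM in sham and 771, 2293 and 1593 in MCAO. The share of Ly6c2 in the summed counts of both genes stayed between 10.1% and 12.3% in all 18 libraries (11.4% ± 0.67, SD).

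Ly6a, which encodes Sca-1, was at 4470, 3653 and 4261 CPM in sham ipsilateral and at 11612, 13120 and 8326 in MCAO ipsilateral. It was at 7819, 7984 and 4623 CPM in Hdac2 ECKO and at 3844, 2091 and 2937 in Ezh2 ECKO. All MCAO ipsilateral libraries were again above the other ipsilateral ones, whereas the highest Ezh2 ECKO library lay above the lowest sham library. Contralateral values were 5815, 4327 and 9543 CPM in sham and 4530, 11933 and 9883 in MCAO.

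Ly6e, an interferon-induced Ly6 gene expressed in many cell types, was at 2402, 2023 and 1643 CPM in sham ipsilateral and at 6117, 7928 and 4934 in MCAO ipsilateral. The Hdac2 ECKO libraries held 3003, 2803 and 2668 CPM and the Ezh2 ECKO libraries 1612, 1028 and 1140, the latter all below sham ipsilateral. Contralateral libraries spread widely, at 2902, 1416 and 6042 CPM in sham and 1628, 5750 and 7434 in MCAO. Together Ly6c1, Ly6c2, Ly6a and Ly6e took 1.54% ± 0.16 of all counts in sham ipsilateral, 3.23% ± 0.64 in MCAO ipsilateral and 0.901% ± 0.098 in Ezh2 ECKO (SD, n = 3). All counts include those of the red cell genes given below.

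Ly6k, best known from male germ cells, was a low and discontinuous signal. It was at 0.082, 0.38 and 0.40 CPM in sham ipsilateral, 2.35, 3.46 and 3.51 in sham contralateral, 11.6, 13.4 and 0.57 in MCAO ipsilateral and 0.19, 8.93 and 11.8 in MCAO contralateral. The Hdac2 ECKO libraries held 0.13, 5.08 and 9.40 CPM, and none of the 3 Ezh2 ECKO libraries had a count. In each of the MCAO and Hdac2 ECKO groups 1 library was thus near the sham ipsilateral level and the others were several CPM higher. With a floor of 3 counts per library (a mean of 0.0833 CPM in Ezh2 ECKO), Ly6k was at least 102-fold lower in Ezh2 ECKO than the mean of MCAO ipsilateral, at least 58.5-fold lower than Hdac2 ECKO and at least 3.46-fold lower than sham ipsilateral; floors cover counting error only. The bound against sham ipsilateral rests on 4, 16 and 15 counts in the sham libraries. If both mates of each pair were counted, 3 counts stand for fewer than 3 fragments and all these bounds would be lower.

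The complement inhibitor Cd59a, the main mouse CD59 gene in most tissues, was at 420, 458 and 486 CPM in sham ipsilateral and 1132, 1741 and 538 in MCAO ipsilateral. Contralateral values were 679, 695 and 796 CPM in sham and 1028, 1809 and 601 in MCAO. Replicate 2 was the highest and replicate 3 the lowest on both sides after occlusion. It was at 991, 829 and 685 CPM in Hdac2 ECKO and 623, 320 and 624 in Ezh2 ECKO, and both groups overlapped MCAO ipsilateral.

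Cd59b, the second copy, was at 18.8, 19.9 and 22.5 CPM in sham ipsilateral and 66.8, 162.6 and 52.4 in MCAO ipsilateral. In contralateral libraries it was at 30.3, 16.1 and 43.1 CPM in sham and 46.3, 174.3 and 53.3 in MCAO. The occluded libraries were above the sham libraries on either side, and replicate 2 was the highest on both. The Hdac2 ECKO libraries held 33.5, 38.9 and 29.3 CPM and the Ezh2 ECKO libraries 17.8, 27.7 and 23.2, all below every MCAO library. Cd59b made up 4.29% ± 0.13 of the summed Cd59 counts in sham ipsilateral, 7.66% ± 1.82 in MCAO ipsilateral, with 3.95% ± 0.62 for Hdac2 ECKO and 4.78% ± 2.80 for Ezh2 ECKO. In Ezh2 ECKO 1 library stood at 7.98% and the others at 2.77% and 3.59%.

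**Figure D2:**
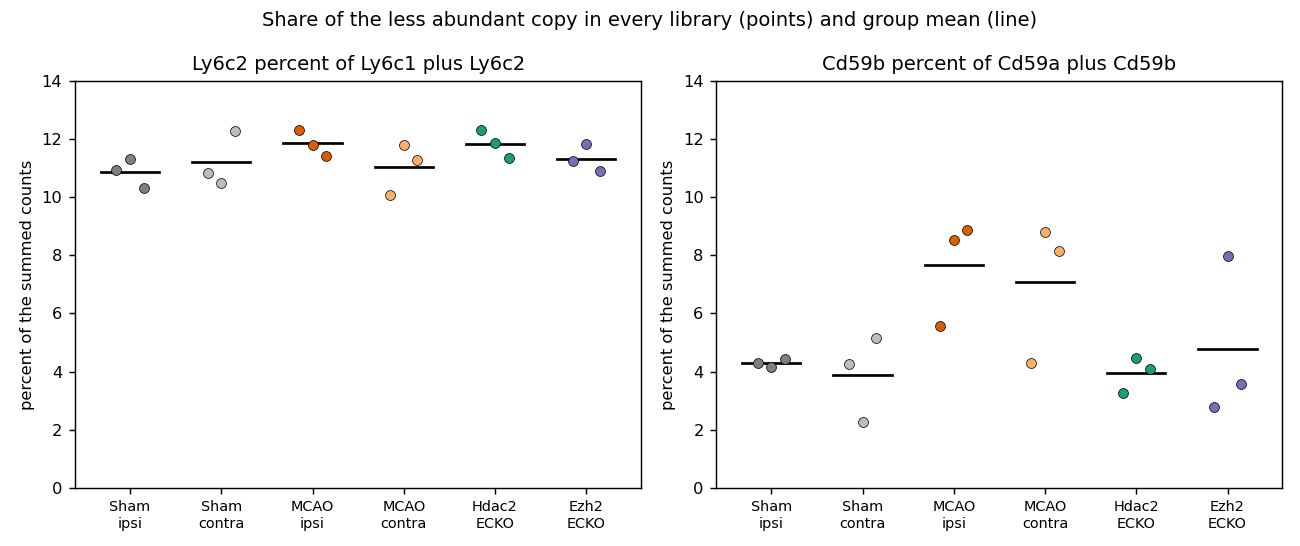
Share of Ly6c2 in the counts of Ly6c1 plus Ly6c2 (left) and of Cd59b in those of Cd59a plus Cd59b (right), in percent, for the 18 libraries (points) and group means (lines). The Ly6c2 share stays between 10.1% and 12.3%, while the Cd59b share runs from 2.27% to 8.87%.

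Gpihbp1, the lipoprotein lipase carrier, was at 14.1, 1.29 and 12.8 CPM in sham ipsilateral, 13.1, 6.83 and 4.01 in sham contralateral, 7.07, 0 and 0.24 in MCAO ipsilateral and 0.13, 10.9 and 0 in MCAO contralateral. It was at 2.91, 9.93 and 16.4 CPM in Hdac2 ECKO and 0.11, 0.17 and 5.98 in Ezh2 ECKO. MCAO ipsilateral, MCAO contralateral and Ezh2 ECKO each held near-zero libraries beside a higher one. The lowest values of sham ipsilateral, sham contralateral and Hdac2 ECKO were 1.29, 4.01 and 2.91 CPM. No comparison of Gpihbp1 separated the groups.

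Alpl, the alkaline phosphatase, differed from the Ly6 genes in that sham and MCAO libraries were alike in range: 118, 46.7 and 60.0 CPM in sham ipsilateral, 83.3, 58.3 and 61.9 in MCAO ipsilateral, 76.6, 72.6 and 93.3 in sham contralateral and 55.8, 60.2 and 101.8 in MCAO contralateral. The Hdac2 ECKO libraries were in the same range, at 110, 78.4 and 73.1 CPM. The Ezh2 ECKO libraries were at 23.1, 23.9 and 17.1 CPM, below all 15 other libraries.

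The occlusion on the injured side was examined as MCAO ipsilateral against sham ipsilateral. Of the 9 genes, 7 had higher means after occlusion and no overlap between groups, from 2.50-fold for Cd59a, 2.52-fold for Ly6c1, 2.67-fold for Ly6a, 2.80-fold for Ly6c2, 3.13-fold for Ly6e and 4.60-fold for Cd59b to 29.5-fold for Ly6k. Among all 17094 genes tested, 13.3% were higher without overlap and 27.7% did not overlap in either direction. The log2 fold changes were 1.33 ± 0.41 (SE) for Ly6c1, 1.48 ± 0.43 for Ly6c2, 1.42 ± 0.40 for Ly6a, 1.64 ± 0.48 for Ly6e, 4.87 ± 1.48 for Ly6k, 1.32 ± 0.41 for Cd59a and 2.20 ± 0.51 for Cd59b, with −1.95 ± 1.78 for Gpihbp1 and −0.15 ± 0.36 for Alpl. The median of the 9 was 1.42, beside −0.09 over all genes. None passed edgeR's quasi-likelihood test after Benjamini-Hochberg adjustment over all genes (0 of 9, and 0% of all genes), with adjusted p-values of 0.411 for Cd59b and 0.509 for the other 6 higher genes. At an unadjusted p under 0.05 all 7 were counted, where 4.26% of all genes were (7.08% in either direction). DESeq2 called 3 of the 9 (Ly6a, Ly6k and Cd59b) and 71 genes in all, and a fit of only these 6 libraries called 2 (Ly6e and Cd59b) and 74 in all. The MCAO ipsilateral libraries are also those against which the genes were low in Ezh2 ECKO when they were chosen, so these counts are not independent of the choice.

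The contralateral comparison, MCAO against sham, uses no library of that contrast. Other results of these data were also in view at the choice, so its values are not shown to be independent of it. None of the 9 was called by edgeR (0 of 9, 0% of all genes) or DESeq2 (0 of 9, beside 26 genes in all). Cd59b was the only one at an unadjusted p under 0.05 (1 of 9, beside 2.65% of all genes higher and 4.41% in either direction) and the only one without overlap (3.64% higher, 9.65% in either direction), with a mean 3.06-fold higher and a log2 fold change of 1.61 ± 0.50 (edgeR adjusted p = 0.920). The 4 abundant Ly6 genes were between 0.38 ± 0.42 for Ly6c2 and 0.52 ± 0.47 for Ly6e, none at an unadjusted p under 0.05. The median of the 9 was 0.42, beside 0.17 over all genes (0.30 with RLE factors, another scaling). It was 0.14 without sham contralateral replicate 2 and 0.13 without MCAO contralateral replicate 2, beside 0.15 and 0.13 over all genes, 0.88 without sham contralateral replicate 3 and 0.75 without MCAO contralateral replicate 1. MCAO contralateral replicate 1, which has the second highest background, held the lowest Ly6c1, Ly6k, Cd59b and Ly6e values of its group; without it the log2 fold changes were 0.71 ± 0.41 for Ly6c1 and 1.95 ± 0.50 for Cd59b, and none was called. The part of background reads in these values was not tested beyond a fit with their level as a covariate, under which 0 of 9 were called.

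Averaged over both sides, Cd59b was 1.91 ± 0.36 higher on the log2 scale after occlusion and was the 1 gene of 9 called by edgeR, where 0.152% of all genes were called (0.123% higher). Ly6k followed at 3.02 ± 0.96, Ly6e at 1.08 ± 0.34, Cd59a at 0.99 ± 0.29, Ly6c2 at 0.93 ± 0.30, Ly6a at 0.92 ± 0.28 and Ly6c1 at 0.87 ± 0.28. Those 6 had edgeR adjusted p-values from 0.192 to 0.253. At an unadjusted p under 0.05 they and Cd59b made 7 of 9, beside 5.52% of all genes higher and 9.09% in either direction. The call rests on most of the libraries, since it was lost with any 1 sham library left out. It was also lost without MCAO ipsilateral replicate 1 or 2 or MCAO contralateral replicate 2. In these fits the edgeR adjusted p was between 0.0626 and 0.158. Without MCAO contralateral replicate 1 the count was 4, beside 266 of all genes. The libraries were pooled over sides that may share mice, and the MCAO ipsilateral libraries are among them. The call of Cd59b is therefore not shown to be independent of the choice of genes.

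**Figure D3:**
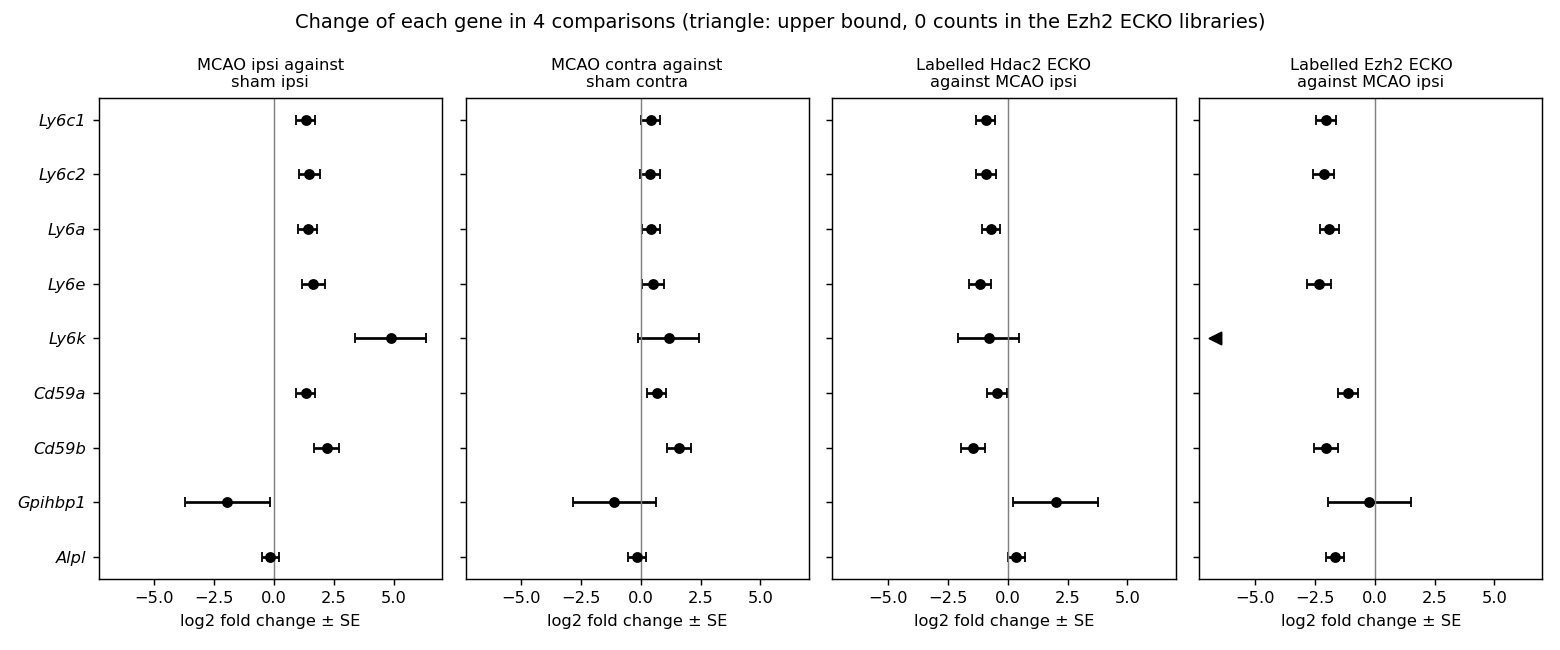
Log2 fold change ± SE (horizontal axes) of the 9 genes (vertical axis) in 4 comparisons; the triangle is the bound for Ly6k, which had 0 counts in Ezh2 ECKO. The comparisons that involve MCAO ipsilateral share its libraries: 7 genes are to the right of 0 in the first and all 9 to the left in the last.

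The sides themselves were compared within each surgery. After occlusion all 9 genes overlapped between ipsilateral and contralateral libraries (5.36% of all genes did not). None of the 9 was called by edgeR (0% of all genes) or DESeq2 (6 genes in all). At an unadjusted p under 0.05 there were 0 of 9 (3.08% of all genes). In sham mice 8 of 9 means were lower on the ipsilateral side, again with 0 called by edgeR (0% of all genes) or DESeq2 (6 genes in all). There Ly6k was 10.8-fold lower, with a log2 fold change of −3.42 ± 1.39, the 1 gene at an unadjusted p under 0.05 (1.15% of all genes lower, 1.85% in either direction). Cd59a was 1.59-fold lower, and Ly6k and Cd59a were the 2 genes without overlap (7.00% of all genes lower, 15.4% in either direction). The other 7 genes overlapped between the sham sides. These sham ipsilateral libraries are the baseline of the ipsilateral comparison above. The interaction of side with occlusion gave 0 of 9 calls by edgeR (0% of all genes) and by DESeq2 (6 genes in all), with 0 of 9 at an unadjusted p under 0.05 (3.38% of all genes). For Ly6c1 that difference was 0.92 ± 0.57 and for Cd59b 0.59 ± 0.69 on the log2 scale.

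In the libraries labelled Hdac2 ECKO, Ly6c1, Ly6c2, Ly6a, Ly6e and Cd59b were all below every MCAO ipsilateral library, 5 of 9 genes where 10.3% of all genes were lower without overlap (19.9% in either direction). The means were 1.89-fold lower for Ly6c1 and Ly6c2, 1.62-fold for Ly6a, 2.24-fold for Ly6e and 2.77-fold for Cd59b. The log2 fold changes were −0.92 ± 0.40 for Ly6c1, −0.92 ± 0.42 for Ly6c2, −0.69 ± 0.39 for Ly6a, −1.16 ± 0.48 for Ly6e and −1.47 ± 0.50 for Cd59b. Ly6k (−0.80 ± 1.26), Cd59a (−0.45 ± 0.40), Gpihbp1 (2.00 ± 1.79) and Alpl (0.36 ± 0.36) overlapped. None of the 9 was called by edgeR (0 of 9, 0.0117% of all genes) or DESeq2 (0 of 9, beside 239 genes in all). The edgeR adjusted p-values were 0.405 to 0.581 for the 5 without overlap. At an unadjusted p under 0.05 there were 4 of 9, all lower, beside 5.24% of all genes (9.85% in either direction). The median of the 9 was −0.80 and that of all genes 0.11. This comparison again shares the MCAO ipsilateral libraries by which the genes were chosen.

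In the libraries labelled Ezh2 ECKO all 9 means were lower than in MCAO ipsilateral, the contrast in view when the genes were chosen, and Cd59a and Gpihbp1 overlapped. Ly6e was 5.02-fold lower, Ly6c2 4.36-fold, Cd59b 4.10-fold, Ly6c1 4.09-fold, Ly6a 3.73-fold and Alpl 3.18-fold, and these with Ly6k were the 7 genes without overlap (15.3% of all genes lower, 29.0% in either direction). The same 7 were those past the threshold in edgeR, where 1.46% of all genes were (1.23% lower). The count was 0 of 9 with the replicate number as a block, and 0 of 9 without MCAO ipsilateral replicate 1 or 2 or Ezh2 ECKO replicate 2 or 3, fits in which between 5 and 24 of all genes were past it. On the log2 scale the values were −2.03 ± 0.42 for Ly6c1, −2.12 ± 0.44 for Ly6c2, −1.90 ± 0.40 for Ly6a, −2.33 ± 0.49 for Ly6e, −2.04 ± 0.51 for Cd59b, −1.67 ± 0.37 for Alpl, −1.12 ± 0.41 for Cd59a and −0.22 ± 1.73 for Gpihbp1. The median of the 9 was −2.03, also with Ly6k at its bound, and that of all genes 0.17 (−1.82 and 0.36 with RLE factors). Background reads were at 984 ± 966 CPM in Ezh2 ECKO and 231 ± 72 in MCAO ipsilateral; with their level as a covariate 0 of 9 were called, Ly6c1 was at −1.49 ± 0.31 and Gpihbp1 turned to 1.16 ± 2.15.

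Against sham ipsilateral, Ezh2 ECKO was lower without overlap for Ly6c1 (1.62-fold), Ly6c2 (1.56-fold), Ly6e (1.61-fold), Alpl (3.51-fold) and Ly6k, 5 of 9 where 8.11% of all genes were (13.7% in either direction). For Ly6k this rests on 4, 16 and 15 counts in the sham libraries, and replicate 1 was at the floor (0.082 CPM). Cd59a (0.20 ± 0.40 on the log2 scale) and Cd59b (0.17 ± 0.49) were at sham level within their error. None of the 9 was past the threshold in edgeR (0.0410% of all genes, 0.0234% lower), 2 had an unadjusted p under 0.05 (Alpl and Ly6k, beside 3.88% of all genes lower and 6.52% in either direction), and DESeq2 had 2 past the threshold and 193 genes in all. Between the labelled deletions, 8 genes had all Hdac2 ECKO libraries above all Ezh2 ECKO libraries (6.87% of all genes, 12.1% in either direction), from 1.48-fold for Cd59b to 4.08-fold for Alpl, with Ly6k at least 58.5-fold. Alpl (2.03 ± 0.38 on the log2 scale) was the 1 gene of 9 past the threshold in edgeR, beside 0.123% of all genes (0.117% higher). It was no longer past it with the replicate number as a block, in a fit of only these groups, or without Hdac2 ECKO replicate 2 or Ezh2 ECKO replicate 2 or 3. This contrast and the previous one share the Ezh2 ECKO libraries, so they are again a description.

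The 4 abundant Ly6 genes varied together. Over the 18 libraries Pearson's r of log2(CPM + 1) with Ly6c1 was 0.995 for Ly6c2, 0.983 for Ly6a and 0.936 for Ly6e, and 0.993, 0.979 and 0.832 after group means were removed. The first 2 genes thus followed Ly6c1 within groups as well as between them. For Cd59b r with Ly6c1 was 0.810, for Cd59a 0.750, for Ly6k 0.718, for Alpl 0.619 and for Gpihbp1 0.031. These are descriptions over libraries that share their depth and composition across genes, and part of the likeness between Ly6c1 and Ly6c2 may be shared reads, which was not tested. Among genes whose mean reached 1 CPM, those most like Ly6c1 were Ly6c2, Ly6a, Hspb1 (a small heat shock protein; 0.973), Card19 (0.967) and Atp6v0b (a subunit of the vacuolar proton pump; 0.966). Most like Ly6k were Ywhaz (a 14-3-3 protein; 0.841), Tmem59 (0.841), Bnip3l (a mitophagy receptor; 0.839), Gps1 (a COP9 signalosome subunit; 0.835) and Hacd2 (0.826). Most like Cd59b were Pnp (purine nucleoside phosphorylase; 0.901), Gna15 (a G protein alpha subunit; 0.891), Pnp2 (0.890), Pttg1ip (0.886) and Gm49342 (0.885).

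**Figure D4:**
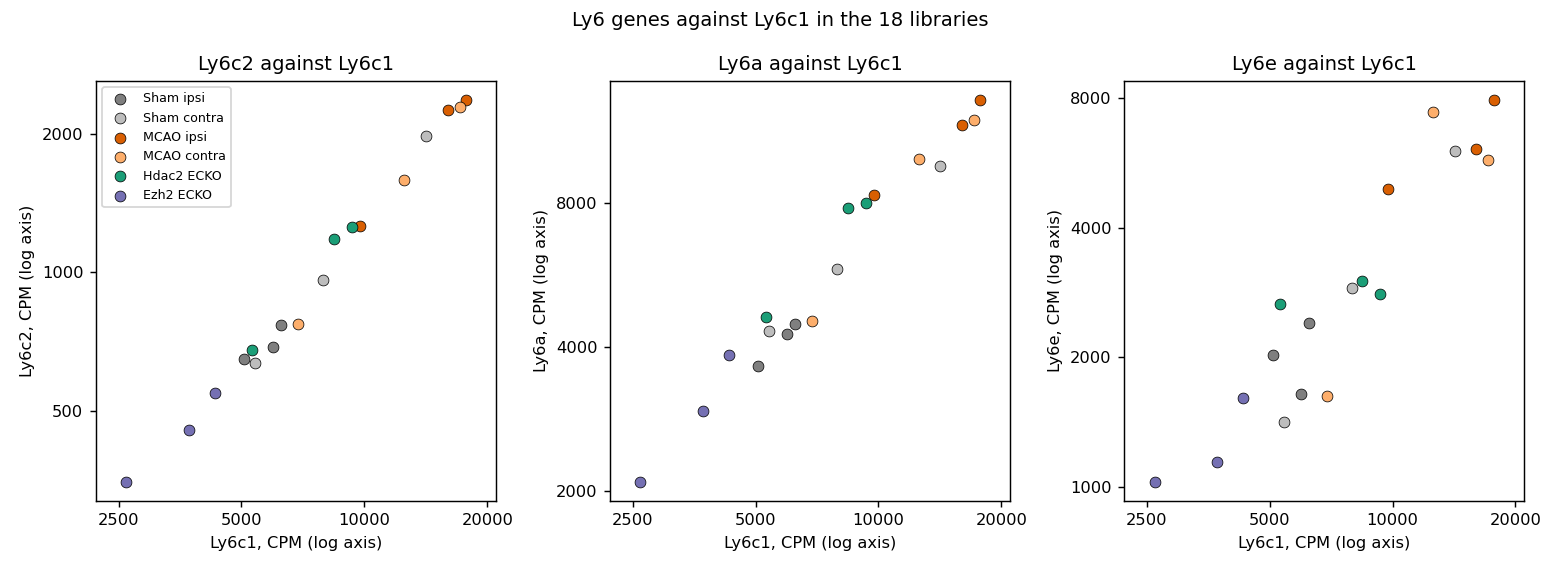
Ly6c2, Ly6a and Ly6e (vertical axes) against Ly6c1 (horizontal axes), in CPM on log axes, in the 18 libraries coloured by group. The points follow 1 line for Ly6c2 (r = 0.995) and Ly6a (r = 0.983) and scatter more for Ly6e (r = 0.936).

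Other genes of the same kinds were counted by lists. Of 34 other genes with Ly6 or uPAR domains, 33 were in the table and 14 were tested. In MCAO ipsilateral against sham ipsilateral 11 of the 14 were higher, 0 were called and 2 passed unadjusted, with a median of 1.15 (7.08% of all genes passed unadjusted there). In Ezh2 ECKO against MCAO ipsilateral 12 were lower, 0 were called and 7 passed unadjusted, with a median of −1.40 (19.2% of all genes passed unadjusted there, 10.7% lower). The most abundant were Ly6i, a close relative of Ly6c1, and Plaur, the urokinase receptor. Ly6i was at 22.7 ± 1.2 CPM in sham ipsilateral and 60.4 ± 17.2 in MCAO ipsilateral, with a log2 fold change of 1.41 ± 0.47 there and −1.56 ± 0.47 in Ezh2 ECKO against MCAO ipsilateral. For Plaur the values were 2.75 ± 0.91 and −2.19 ± 0.89.

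Of 31 genes for GPI synthesis and attachment, 17 were higher and 14 lower in MCAO ipsilateral against sham ipsilateral, with 0 called and 0 unadjusted, and a median of 0.16. In Ezh2 ECKO against MCAO ipsilateral 1 was called, Pigu (a subunit of the transamidase that attaches the anchor), at −2.74 ± 0.61 (edgeR adjusted p = 0.0361). The summed level of the list ran from 711 to 1923 CPM per library. Of 35 other GPI-anchored surface proteins tested, 0 were called in MCAO ipsilateral against sham ipsilateral. In Ezh2 ECKO 1 was called, Reck (an inhibitor of matrix metalloproteinases), and it rose, by 1.35 ± 0.32 (edgeR adjusted p = 0.0434), while 21 of the 35 were lower. Car4, an anchored carbonic anhydrase of brain capillaries and the most abundant of them, was at −1.46 ± 0.50 there and at 0.67 ± 0.49 after occlusion.

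Among partners of single members, 0 of 9 complement regulators were called in either comparison, and 0 of 10 genes of the lipoprotein lipase pathway were. Cr1l (Crry), the rodent membrane inhibitor of complement activation, was at 0.64 ± 0.30 after occlusion and −0.74 ± 0.30 in Ezh2 ECKO against MCAO ipsilateral on the log2 scale. Angptl4, an inhibitor of lipoprotein lipase, was at 2.02 ± 0.79 and −2.27 ± 0.79. Of 16 interferon-induced genes 13 were higher in MCAO ipsilateral than in sham ipsilateral, beside 45.9% of all genes. Of these, 8 had an unadjusted p under 0.05 (4.26% of all genes, higher), and 0 were called. In Ezh2 ECKO against MCAO ipsilateral 12 of the 16 were lower, 6 of them at an unadjusted p under 0.05 (10.7% of all genes, lower), and 0 were called. Their summed level was 1643 ± 130 CPM in sham ipsilateral, 3110 ± 580 in MCAO ipsilateral, with 2924 ± 251 for Hdac2 ECKO and 2089 ± 940 for Ezh2 ECKO.

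Because Ly6C is carried by other cells too, their markers were set beside these results. The summed level of 10 monocyte and macrophage markers was 8.57 ± 1.91 CPM in sham ipsilateral (range 6.38 to 9.90), 21.6 ± 15.1 in MCAO ipsilateral (12.3 to 39.0) and 26.8 ± 20.2 in Ezh2 ECKO (10.2 to 49.3). Ly6c1 was at 2610 CPM or more in every library. The part of these cells in the Ly6 values was not tested. That of 9 neutrophil markers was between 3.35 and 21.8 CPM per library, and 4 of them stayed under 1 CPM in every library. One of them, Ly6g, is itself a Ly6 gene and was at a median of 5.18 CPM. Ptprc, which encodes CD45, was at a median of 1.16 CPM and the monocyte receptor gene Ccr2 at 0.208 CPM. Microglia markers (8 genes) summed to 34.6 ± 4.53 CPM in sham ipsilateral, 75.0 ± 5.14 in MCAO ipsilateral, with 64.0 ± 14.8 for Hdac2 ECKO and 51.0 ± 4.57 for Ezh2 ECKO, a higher level after occlusion as for the Ly6 genes; their part in the Ly6 values was not tested. Endothelial markers summed to 29926 ± 1455 CPM in sham ipsilateral and 47517 ± 11937 in MCAO ipsilateral. They summed to 39323 ± 8749 for Hdac2 ECKO and 28917 ± 4963 for Ezh2 ECKO, the same order of groups as for Ly6c1. Bsg (basigin) and Itm2a had the highest means. Bsg had this order, at 7920, 22802, 9768 and 3172 CPM, and Itm2a did not, at 8237, 10510, 16318 and 12090 CPM. Of the 17, 9 were higher and 8 lower in MCAO ipsilateral against sham ipsilateral (median log2 fold change 0.09). In Ezh2 ECKO against MCAO ipsilateral 10 were higher and 7 lower (0.08), and 1 was called (Bsg, −2.85 ± 0.66, edgeR adjusted p = 0.0379). Neuron markers (8 genes) summed to 86.9 ± 27.1 CPM in sham ipsilateral, 149 ± 30.2 in MCAO ipsilateral, with 161 ± 27.2 for Hdac2 ECKO and 63.1 ± 15.9 for Ezh2 ECKO. For 6 platelet markers the sums were 22.1 ± 3.09, 36.9 ± 2.37, 46.0 ± 37.2 and 22.4 ± 6.38 CPM in the same order. In both sums MCAO ipsilateral was above sham ipsilateral and Ezh2 ECKO without overlap, as for the abundant Ly6 genes. Most of the neuron sum was Stmn2, at 84.0 CPM in sham ipsilateral, 147 in MCAO ipsilateral and 60.2 in Ezh2 ECKO. Of 7 neuron markers tested, 2 were higher and 5 lower in MCAO ipsilateral against sham ipsilateral (median log2 fold change −0.93). In Ezh2 ECKO against MCAO ipsilateral 4 were higher and 3 lower (0.57). For the 6 platelet markers these counts were 3 and 3 (−0.21), then 2 and 4 (−1.93). Markers of pericytes and smooth muscle (10 genes) went the other way after occlusion, with 141 ± 30.9 CPM in sham ipsilateral, 73.3 ± 32.5 in MCAO ipsilateral, 39.1 ± 26.5 for Hdac2 ECKO and 82.8 ± 75.9 for Ezh2 ECKO. The part of these cells in the results was not tested. Red cell markers, mostly globins, summed to 307 ± 320 CPM in Ezh2 ECKO, 50380 ± 13828 in MCAO ipsilateral, 42544 ± 20761 in sham ipsilateral and 199505 ± 132134 in Hdac2 ECKO, and 5 of 7 were called lower in Ezh2 ECKO against MCAO ipsilateral; the part of this difference in the other results was not tested.

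Taken relative to the summed endothelial markers of the same library, a measure added after the values were seen, Ly6c1 stood at 19.3% in sham ipsilateral, 30.6% in MCAO ipsilateral, with 19.5% for Hdac2 ECKO and 12.2% for Ezh2 ECKO. MCAO ipsilateral was then 1.58-fold above sham ipsilateral for Ly6c1, 1.69-fold for Ly6a, 1.76-fold for Ly6c2, 1.98-fold for Ly6e and 2.71-fold for Cd59b. Hdac2 ECKO lay below MCAO ipsilateral for Ly6c1, Ly6c2, Ly6a, Ly6e and Cd59b, from 1.36-fold (Ly6a) to 2.11-fold (Cd59b), and 1.48-fold above it for Alpl. Ezh2 ECKO was 2.51-fold below MCAO ipsilateral for Ly6c1 and 3.08-fold for Ly6e, and 1.99-fold for Alpl, whose groups now overlapped. The sum itself is dominated by a few abundant markers, and a ratio to it shows unequal change rather than the absence of change in either. Bsg, 1 of those markers, was itself called lower in Ezh2 ECKO against MCAO ipsilateral (3172 against 22802 CPM). Against the same 22802 CPM, Bsg was also lower in sham ipsilateral (7920 CPM) and in Hdac2 ECKO (9768 CPM). The ratios in all 3 comparisons, and the overlap for Alpl, therefore depend in part on Bsg. A sum without it was not taken.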

How the data were processed

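Bulk RNA was sequenced from sorted cortical endothelium in 18 libraries (6 groups of 3). The submitters' processing notes name FastQC, cutadapt, STAR, featureCounts, DESeq2 and mm10, with no versions or roles. The deposited table holds whole-number counts per gene; its name calls them normalized, but totals differ between libraries (25791401 to 57576255), and even numbers make up 77.3% to 89.4% of the values from 1 to 20, so both mates of a pair may have been counted.

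The 17094 of 21638 genes that reached 10 counts in 3 or more libraries were tested with edgeR 4.0.16 in R 4.3.3 (TMM scaling, 1 quasi-likelihood fit of 6 group means, common biological coefficient of variation 0.774). A gene was called at a Benjamini-Hochberg adjusted p under 0.05 over all genes tested. SEs of log2 fold changes were derived from the F statistic (log2 fold change over √F). CPM uses TMM-scaled totals. The fit was also run on simulated counts, in which groups differed only by known fold changes set in randomly picked genes. That run does not cover group differences in background or red cell reads. With 3 libraries against 3 an exact permutation test cannot go below 0.1, so none is given.

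The members and lists were chosen with earlier results of these data known. Named were every member, Hdac2 and Ezh2, and from each list up to 3 called genes or, where none was called, up to 2 of the highest mean CPM. The genes most like a member were ranked by Pearson's r of log2(CPM + 1). Alternatives were RLE scaling, no filter, halved counts, a replicate block, background reads as a covariate, only the groups compared, DESeq2 1.42.0 and leaving out each library.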

Additional observations from a re-analysis of the deposited data

How the results depend on the processing

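The counts of called genes among the 9 were recomputed under each alternative. Numbers called among all genes are given in brackets. Without the low-count filter the count was 2 in Hdac2 ECKO against Ezh2 ECKO (38). With background reads as a covariate it was 2 for the occlusion averaged over both sides (99) and 0 in Ezh2 ECKO against MCAO ipsilateral (13). With only the groups compared it was 2 in MCAO ipsilateral against sham ipsilateral (74). It was then 0 for both sides together (24) and 0 in Hdac2 ECKO against Ezh2 ECKO (14). DESeq2 gave 3, 4 and 2 for these (71, 334 and 647), and 2 in Ezh2 ECKO against sham ipsilateral (193). With the replicate number as a block the count was 0 for both sides together (4), where Cd59b had an edgeR adjusted p of 0.0836. It was also 0 in Ezh2 ECKO against MCAO ipsilateral (12) and 0 in Hdac2 ECKO against Ezh2 ECKO (9). No other count changed with the block. The numbers were not taken as pairs: correlations of same-numbered deviations were −0.07 to 0.25 in sham and −0.02 to 0.30 in MCAO, and 1 and 2 of the 3 ipsilateral libraries correlated best with their own number. Leaving out 1 library gave 0 to 4 for both sides together (0 to 266 of all genes). In Ezh2 ECKO against MCAO ipsilateral it gave 0 to 7 (5 to 298 of all genes). The count there was 0 without MCAO ipsilateral replicate 1 or 2 or Ezh2 ECKO replicate 2 or 3. In Hdac2 ECKO against Ezh2 ECKO it gave 0 to 1 (9 to 73 of all genes). The count there was 0 without Hdac2 ECKO replicate 2 or Ezh2 ECKO replicate 2 or 3, and 0 in the remaining comparisons throughout. Across all genes, those called in Ezh2 ECKO against MCAO ipsilateral were 250, and 435 with halved counts, 485 with only these groups, 12 with the block, 13 with the covariate and 1617 by DESeq2. The cause of these shifts was not tested.

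Over single genes and alternatives, 559 log2 fold changes kept their direction and side of the threshold, 58 lost the threshold, 12 passed it and 10 changed sign. Gpihbp1 in Ezh2 ECKO against MCAO ipsilateral turned to 0.000575 without the filter and 1.16 with the covariate, and ran from −4.14 to 4.10 with 1 library left out (above 0 without MCAO ipsilateral replicate 1 or Ezh2 ECKO replicate 1 or 2). Ly6k in Hdac2 ECKO against MCAO ipsilateral turned to 0.40 with the covariate. With 1 library left out, Alpl after occlusion ran from −0.40 to 0.37 (ipsilateral, above 0 without sham ipsilateral replicate 1), −0.31 to 0.11 (both sides, the same library) and −0.48 to 0.022 (contralateral, above 0 without MCAO contralateral replicate 1), and Ly6c2 on the contralateral side from −0.025 (without MCAO contralateral replicate 2) to 0.97. On unscaled library totals 8 of 54 group means moved by more than their SD, among them Ly6c1 in sham ipsilateral, to 7023 CPM. Ly6k and Gpihbp1 had 0 counts in 3 and 2 libraries. Those of Gpihbp1 were MCAO ipsilateral replicate 2 and MCAO contralateral replicate 3, with total counts of 51313194 and 50602028. Sham contralateral replicate 2, at a total of 29451282, held 203 counts of Gpihbp1 and 103 of Ly6k. The part of depth in these zeros was not tested.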
